A study of Mus musculus with 4 samples.

Results

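Arterial and venous-like endothelial cells are the lining cells of the blood vessels that lead to and from the capillary bed. Here they were single cells of embryonic mouse lung, picked by counts of a few genes. A barcode was taken as endothelial when it had at least 500 genes, at most 20% mitochondrial unique molecular identifiers (UMIs), under 0.3% of UMIs from Col1a1, Col1a2 and Col3a1, no UMI of Epcam, Ptprc, Mmrn1 or Prox1, and UMIs of at least 3 of the 6 genes Cdh5, Cldn5, Emcn, Icam2, Pecam1 and Calcrl. Of these cells, those with at least 1 UMI of Gja5 or Bmx were called arterial, and those with at least 2 UMIs of Vwf and none of Gja5 or Bmx were called venous-like. The rule found 259 cells among 20601 barcodes that met the gene and mitochondrial limits, out of 27815 deposited barcodes. There were 151 arterial and 108 venous-like cells, and 1565 further endothelial cells met the endothelial limits alone.

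The study compared wild-type lungs with Dnmt1 CKO lungs, whose label gives Tbx4-rtTA, Tet-O-Cre and a Dnmt1 locus written D/D, with 2 single-cell 3′ libraries in each group, all from embryos at E18.5. Dnmt1 is the enzyme that copies DNA methylation to new strands, Tet-O-Cre is a Cre recombinase switched by the rtTA protein, and Tbx4-rtTA is known as a driver for lung mesenchyme. When the switch was induced, whether endothelial cells recombined, whether wild-type lungs carried a transgene and how many embryos gave a library are not given in the sources used here. The p-values below measure the spread between libraries, which may be technical.

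Arteries and veins are lined by endothelial cells of different identity. Arterial identity is known to depend on Notch signalling, with the ligands Dll4, Jag1 and Jag2, the receptors Notch1 and Notch4 and the target Hey1, and to mark cells by the ephrin ligand Efnb2. Venous identity is known to depend on the nuclear receptor Nr2f2, with the ephrin receptor Ephb4 on the cell surface. Gja5 encodes a gap junction protein of arterial endothelium, Bmx a kinase of arterial endothelium, and Vwf the clotting protein von Willebrand factor, which large arteries and veins both make.

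The 4 libraries held 48213065 to 56760219 UMIs each. By Xist and Y-linked UMIs in endothelial cells, wild type 1 and CKO 2 were female and wild type 2 and CKO 1 male, so each group had a library of each sex. CKO 1 also held 48 Xist UMIs beside 271 Y-linked UMIs. Pairs of libraries shared 8 to 16 barcodes, and 1 arterial or venous-like cell carried a barcode found in another library. Endothelial cells made up 11.3% ± 0.873 (SD, n = 2) of the barcodes within limits in wild type and 6.16% ± 2.57 (n = 2) in the CKO. With barcodes that held UMIs of the germline list given below left out, these were 13.0% ± 1.12 and 12.2% ± 1.71, which overlap. That left 4391 of 5339, 3979 of 5104, 1480 of 4401 and 2882 of 5757 barcodes in wild type 1, wild type 2, CKO 1 and CKO 2. It thus removed a greater part of the CKO barcodes, so this overlap cannot tell whether the endothelial share differed. With barcodes of 3 or more mesenchymal markers left out, the shares were 21.7% ± 0.874 and 11.8% ± 3.22. Levels are given as CPM, the UMIs of a gene over the summed cells of a kind in a library, scaled to a total of 1000000. Dnmt1 (chromosome 9, 20907209 to 20959888, GRCm38, positions from GENCODE vM21 here and below) stood at 25.7, 26.3, 9.04 and 11.8 CPM in collagen-rich mesenchymal barcodes of wild type 1, wild type 2, CKO 1 and CKO 2, so both CKO values were below both wild-type values there.

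Arterial cells numbered 50 in wild type 1, 45 in wild type 2, 20 in CKO 1 and 36 in CKO 2. Venous-like cells numbered 34, 44, 5 and 25 in the same order. CKO 1 was thus thin throughout, and its 5 venous-like cells held 91644 UMIs, where 0 UMIs of a gene allow up to 32.7 CPM (3 UMIs, counting error only). The median arterial cell held between 5996 UMIs (wild type 2) and 9438 UMIs (CKO 2), the median venous-like cell between 4960 (CKO 2) and 10816 (CKO 1), and the median other endothelial cell between 3962 (CKO 2) and 5014 (wild type 2). Cells picked for sparse genes were thus deeper than the other endothelial cells in every library, CKO 2 venous-like cells included, so shares of cells with a UMI are given below after thinning, except those of germline genes, which are unthinned.

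Of the genes the rule used, given as description only, Gja5 (chromosome 3, 96904693 to 97077416) was the more widespread arterial gene. It had UMIs in 120 arterial cells, Bmx (chromosome X, 164192842 to 164258193) in 78, and 47 cells had both. Gja5 stood at 264, 186, 255 and 176 CPM in the arterial cells of wild type 1, wild type 2, CKO 1 and CKO 2, and Bmx at 67.9, 111, 90.4 and 129 CPM. Collagen-rich mesenchymal barcodes, chosen to have no Cdh5, Pecam1 or Cldn5 UMI, held Gja5 at 7.09 to 24.0 CPM, and Bmx at 0.229 to 0.294 CPM. Vwf (chromosome 6, 125546774 to 125686679) stood at 565, 641, 314 and 1219 CPM in arterial cells and at 797, 820, 720 and 616 CPM in venous-like cells, with 87 of the 151 arterial cells also at 2 or more Vwf UMIs.

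The limits cut through a gradient. The 27 venous-like cells with exactly 2 Vwf UMIs held Nr2f2 at 102 CPM, the serine protease gene Prss23 at 222 CPM and the capillary gene Gpihbp1, the anchor of lipoprotein lipase, at 495 CPM. The 58 endothelial cells with exactly 1 Vwf UMI, just outside, held these at 69.7, 59.0 and 672 CPM. The 81 cells with 3 or more stood at 219, 247 and 269 CPM. On the arterial side, 63 of the 151 cells had a single UMI of Gja5 and Bmx together, and in these the chemokine gene Cxcl12 stood at 1395 ± 521 CPM (SD, n = 4 libraries), against 3223 ± 924 CPM in cells with 2 or more.

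Markers outside the rule were counted in single cells. After each cell was thinned to 3000 UMIs, which left 131 arterial and 100 venous-like cells, the median arterial cell held 38 UMIs of 27 arterial marker genes and 2 UMIs of 19 venous marker genes. The median venous-like cell held 10.5 UMIs of the arterial list and 8 UMIs of the venous list. More arterial-list than venous-list UMIs were found in 128 of the 131 arterial cells, but also in 61 of the 100 venous-like cells, and 33 venous-like cells had more venous-list UMIs. The lists are of unequal size and abundance, so the equal-sum line in the plot of marker UMIs per cell is no boundary. The vein genes Slc6a2, a noradrenaline transporter, and Ackr1, an atypical chemokine receptor, were near 0, with 4 UMIs (wild type 2) and 5 UMIs each in wild type 2 and CKO 2 in the venous-like cells. The median arterial cell thus held more arterial-list and fewer venous-list UMIs than the median venous-like cell. The arterial list also holds Eln, Fbln2 and Plac8, which were no lower in venous-like cells (values below), so its sum does not grade the identity of a venous-like cell.

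**Figure D1:**
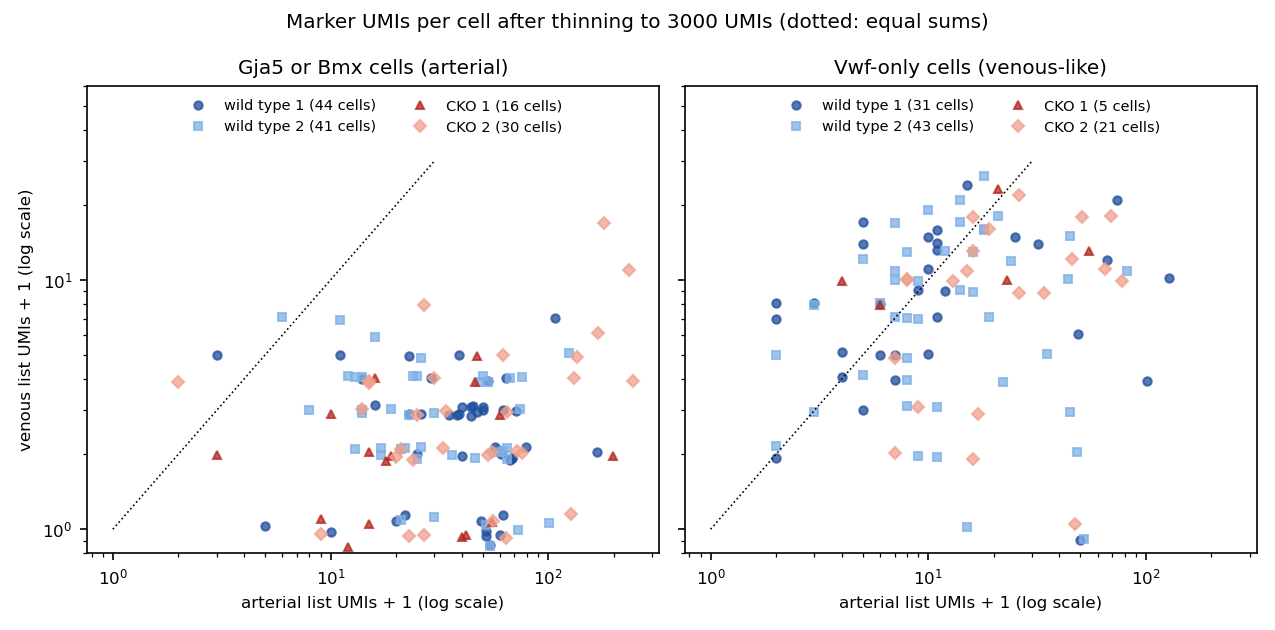
UMIs of the arterial marker list (x axis, plus 1, log scale) against the venous marker list (y axis, plus 1, log scale, with a small random shift) in single cells thinned to 3000 UMIs, for 131 arterial cells (left) and 100 venous-like cells (right). Nearly all arterial cells lie below the dotted line of equal sums with a median of 2 venous-list UMIs, while the venous-like cells spread across both sides of it.

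Arterial and venous-like cells were compared within each library, which asks which genes other than Gja5, Bmx and Vwf tell them apart. The arterial cells were higher in arterial surface and signalling genes, among them Cxcl12, the connexin gene Gja4 and the ephrin gene Efnb2, and lower in Nr2f2, the apelin receptor gene Aplnr and the secreted defence genes Lbp, Fgl2 and Masp1. Of 5712 genes tested with edgeR's quasi-likelihood test, 402 passed an adjusted p of 0.05 (7.04% of all tested), 235 higher in arterial cells (4.11%) and 167 lower (2.92%). Without CKO 1, with its 5 venous-like cells, 421 genes passed. Without wild type 1, 207 passed.

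Cxcl12 (chromosome 6, 117168535 to 117181367), which guides leukocytes and growing vessels, stood at 3345, 3053, 2473 and 1828 CPM in the arterial cells of wild type 1, wild type 2, CKO 1 and CKO 2, and at 209, 335, 0 and 108 CPM in the venous-like cells. Every arterial value was thus above every venous-like one. By the looser measure of each library on its own, 14.6% of all genes tested were higher in the arterial cells of all 4 libraries. The means of Cxcl12 were 2675 ± 671 CPM (SD, n = 4) and 163 ± 143 CPM, with a log2 difference of 4.04 ± 0.38 (SE, edgeR adjusted p = 2.2e-05). Gja4, which encodes a gap junction protein next in family to Gja5, stood at 474, 255, 340 and 239 CPM against 30.4, 34.9, 0 and 14.9 CPM, again without overlap (log2 difference 3.64 ± 0.30, edgeR adjusted p = 1.05e-05). Efnb2 stood at 505, 695, 521 and 441 CPM against 98.7, 149, 98.2 and 80.7 CPM (log2 difference 2.32 ± 0.17, edgeR adjusted p = 4.81e-06). The semaphorin gene Sema3g and the Wnt antagonist gene Dkk2 were also higher in arterial cells of all 4 libraries, by 3.40 ± 0.26 and 4.72 ± 0.38 on the log2 scale.

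Of 23 tested genes of the arterial marker list, 20 were higher in arterial cells and 1 was lower, with a median log2 difference of 1.78 where the median of all genes was near 0. Plac8 was the one against the list's name, at 26.7 ± 14.8 CPM in arterial and 315 ± 93.3 CPM in venous-like cells (SD, n = 4). The transcription factor genes Mecom and Sox17 were higher by 2.40 ± 0.21 and 1.51 ± 0.17 on the log2 scale. Eln and Fbln2, elastic fibre genes of the same list, did not pass (log2 differences 0.43 ± 0.45 and -0.00 ± 0.17). Eln stood at 1334 ± 132 CPM in venous-like cells (SD, n = 4) and at 910 to 1285 CPM in the arterial cells of 3 libraries, with 10508 CPM in CKO 2.

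Of 12 tested Notch pathway genes, 6 were higher in arterial cells and none was lower. The target Hey1 stood at 156, 157, 138 and 89.6 CPM in arterial and at 7.59, 20.9, 10.9 and 32.9 CPM in venous-like cells, which did not overlap (log2 difference 2.68 ± 0.36, edgeR adjusted p = 0.000424). The ligand genes Jag1, Dll4 and Jag2 were higher by 2.09 ± 0.31, 1.94 ± 0.28 and 1.65 ± 0.23, and the receptor genes Notch4 and Notch1 by 1.47 ± 0.25 and 0.73 ± 0.18. Hes1, another Notch target, did not pass (log2 difference -0.17 ± 0.25).

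Of 13 tested genes of the venous marker list, 10 were lower in arterial than in venous-like cells and 1 was higher, with a median log2 difference of -2.79. Aplnr stood at 691, 418, 742 and 415 CPM in venous-like cells against 44.1, 19.6, 42.5 and 20.5 CPM in arterial cells (log2 difference -4.21 ± 0.19, edgeR adjusted p = 6.21e-08). Nr2f2 stood at 311, 153, 196 and 155 CPM against 40.4, 9.81, 37.2 and 37.3 CPM (log2 difference -2.81 ± 0.28, edgeR adjusted p = 3.89e-05). The neuropilin gene Nrp2 and the carbonic anhydrase-related gene Car8 also fell in arterial cells, by 3.25 ± 0.23 and 3.03 ± 0.26 on the log2 scale, and Ephb4 by 0.94 ± 0.20. Vcam1, an adhesion receptor for leukocytes, was higher in arterial cells, at 111 ± 129 CPM against 18.1 ± 12.3 CPM (SD, n = 4), and most of that mean came from CKO 2 at 299 CPM. Flt4 and Selenop did not pass.

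**Figure D2:**
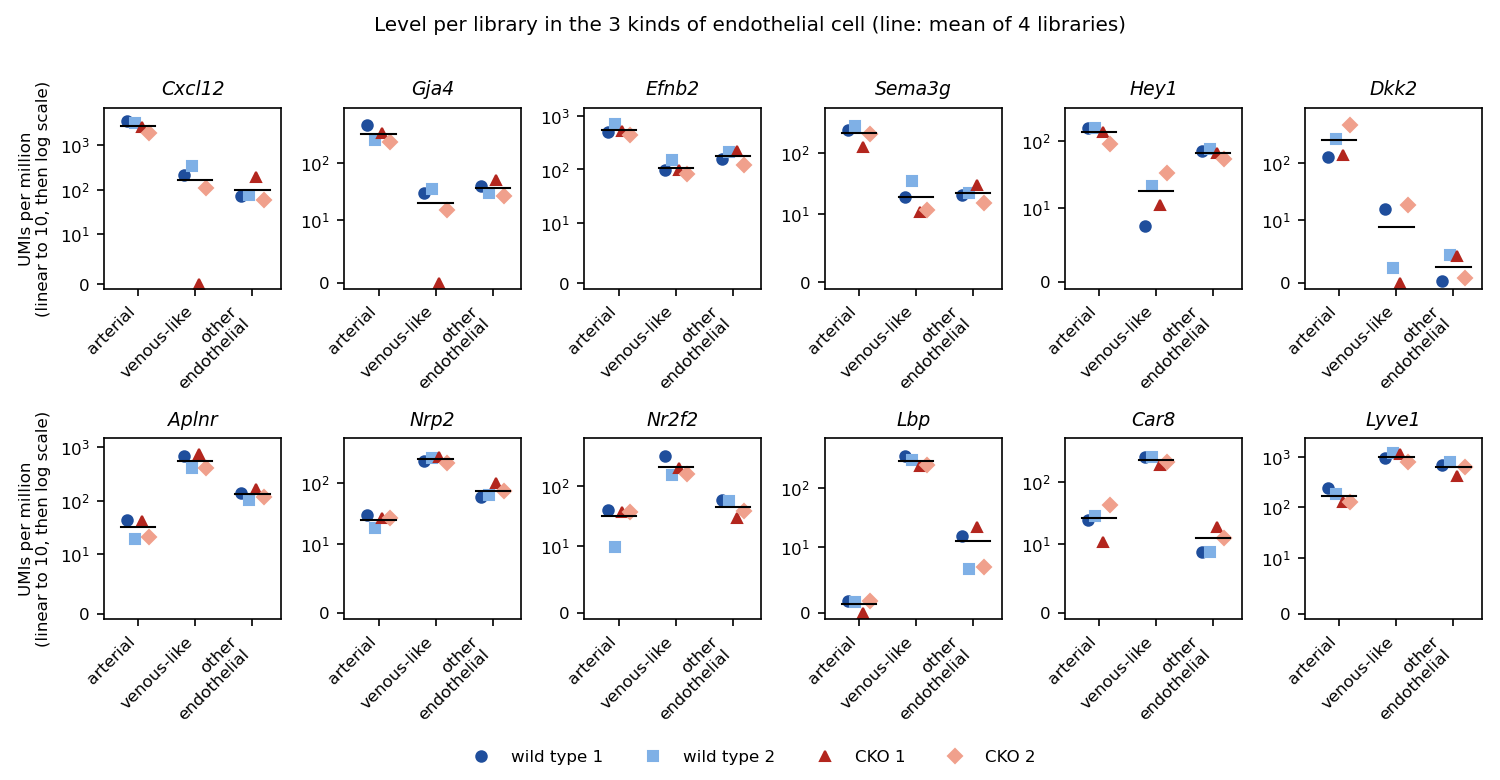
Level of 12 genes in CPM (y axis, labelled as UMIs scaled per library, linear to 10 and log above) in arterial, venous-like and other endothelial cells, with 1 point per library and a line at the mean of the 4 libraries. In the upper row the arterial values lie above all venous-like values, and in the lower row the venous-like values lie above all arterial values.

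Of all genes tested, the one with the largest fitted fall in arterial cells was Lbp (chromosome 2, 158306493 to 158332852), which encodes the plasma protein that binds bacterial lipopolysaccharide. It stood at 349, 297, 240 and 242 CPM in venous-like cells, with 3 UMIs in all 151 arterial cells, a ratio of 181 (95% exact conditional interval 61.3 to 881, counting error only). Fgl2, a fibrinogen-like protein gene, had 212 venous-like UMIs against 3 arterial UMIs, and Masp1, a protease gene of the lectin pathway of complement, had 86 against 1. In other endothelial cells Lbp stood at 12.9 ± 7.49 CPM (SD, n = 4), between the 2 kinds. The other genes with large falls in arterial cells included the homeobox gene Lhx6 (-5.03 ± 0.44), the hedgehog-binding protein gene Hhip (-4.23 ± 0.45), the growth factor gene Nrg1 (-4.08 ± 0.42) and the matrix protease gene Mmp16 (-3.38 ± 0.42), with Dnm3, Fam174b and Pgm5 between.

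On the arterial side the largest fitted differences belonged to sparse genes. Aldoc, a glycolytic enzyme gene, had 108 arterial UMIs and 1 venous-like UMI (ratio 64.3, interval 11.3 to 2564), Neto2 91 and 1, and the homeobox gene Msx1 83 and 1. Wfdc1, Gpr21 and S100a4 had 83 to 149 arterial UMIs and 2 or 3 venous-like UMIs each. Slc45a4, a transporter gene, was better measured, at 213, 361, 122 and 207 CPM against 11.4, 23.2, 21.8 and 14.9 CPM (log2 difference 3.80 ± 0.26, edgeR adjusted p = 4.77e-06).

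Signalling genes were found on both sides. Of 15 tested Bmp and Tgf-beta genes, 3 were higher in arterial cells, namely Tmem100 (2.89 ± 0.26), the ligand gene Tgfb2 (2.26 ± 0.36) and the inhibitor gene Smad6 (2.14 ± 0.38), and the ligand gene Tgfb1 was lower (-0.61 ± 0.16). Of 13 Vegf, angiopoietin and apelin genes, Esm1, Pdgfd and Nrp1 were higher in arterial cells, and Aplnr, Nrp2 and the ligand gene Vegfc were lower. For the Cxcl12 system, the receptor gene Cxcr4 was higher in arterial cells (3.19 ± 0.51) like its ligand, while the decoy receptor gene Ackr3 was lower (-2.52 ± 0.21). Of 16 vasoactive and flow-responsive genes, Ace, Edn1 and Klf2 were higher in arterial cells and Ptgs1, Ednrb and Piezo1 lower. Of 8 haemostasis genes 3 were lower in arterial cells, Anxa2, Procr and Entpd1, which are known to curb clotting or platelets or to aid clot lysis.

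Matrix and imprinted genes were found on both sides too. Of 24 matrix and elastic fibre genes, 5 were higher in arterial cells, among them Fbn1 (1.92 ± 0.23) and Ltbp4 (1.42 ± 0.24), and Ltbp1 and Col15a1 were lower. Among 13 imprinted genes, the maternally expressed non-coding RNA H19 (chromosome 7, 142575529 to 142578143) stood at 1144, 1507, 1282 and 1214 CPM in arterial and at 122, 360, 229 and 415 CPM in venous-like cells (log2 difference 2.24 ± 0.23, edgeR adjusted p = 5.76e-05). Cdkn1c was higher too, and the paternally expressed genes Mest, Plagl1 and Peg3 were lower in arterial cells by 1.52 ± 0.16, 1.73 ± 0.21 and 1.88 ± 0.23.

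Markers of other cell types were looked at in both kinds. Lyve1, which lymphatic vessels share with some blood endothelium, stood at 1009 ± 171 CPM in venous-like and 170 ± 54.4 CPM in arterial cells (SD, n = 4). The rule had, however, removed all Prox1 and Mmrn1 cells. Of the 9 gene IDs left in the lymphatic list, Lyve1 included, 5 were at 0 in venous-like cells, and Ccl21a had more than 1 of these IDs. Summed platelet and megakaryocyte markers, whose cells also hold Vwf, stood at 6.97 to 65.5 CPM in venous-like and 11.4 to 37.2 CPM in arterial cells. Of 5 tested mesenchymal markers, Mgp, Acta2 and Tagln were higher in arterial cells, and Acta2 rested in part on CKO 1, where 47 of 50 arterial UMIs lay in 1 cell. The 14 mesenchymal markers summed to 2065, 881, 2037 and 5075 CPM in arterial and to 828, 1280, 480 and 1506 CPM in venous-like cells, with none of the 14 at 0 over the 4 libraries. With cells that held UMIs of 3 or more of 12 of them left out, 527 genes still differed between arterial and venous-like cells, 355 of them among the 402.

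Single cells thinned to 3000 UMIs showed the same contrasts as shares. Cxcl12 had a UMI in 38 of 44, 34 of 41, 12 of 16 and 26 of 30 arterial cells of wild type 1, wild type 2, CKO 1 and CKO 2, and in 3 of 31, 8 of 43, 0 of 5 and 1 of 21 venous-like cells. Thinned epithelial cells, which should lack it, had one in 4 of 508, 0 of 506, 3 of 336 and 6 of 706. Aplnr had a UMI in 2 of 44, 1 of 41, 1 of 16 and 0 of 30 arterial cells and in 23 of 31, 22 of 43, 5 of 5 and 16 of 21 venous-like cells, with 0 of 508 to 1 of 336 in epithelial cells. Hey1 was sparser, with a UMI in 17 of 44, 14 of 41, 7 of 16 and 6 of 30 arterial cells. Before thinning, Cxcl12 was found in 88.0%, 86.7%, 85.0% and 94.4% of arterial cells.

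**Figure D3:**
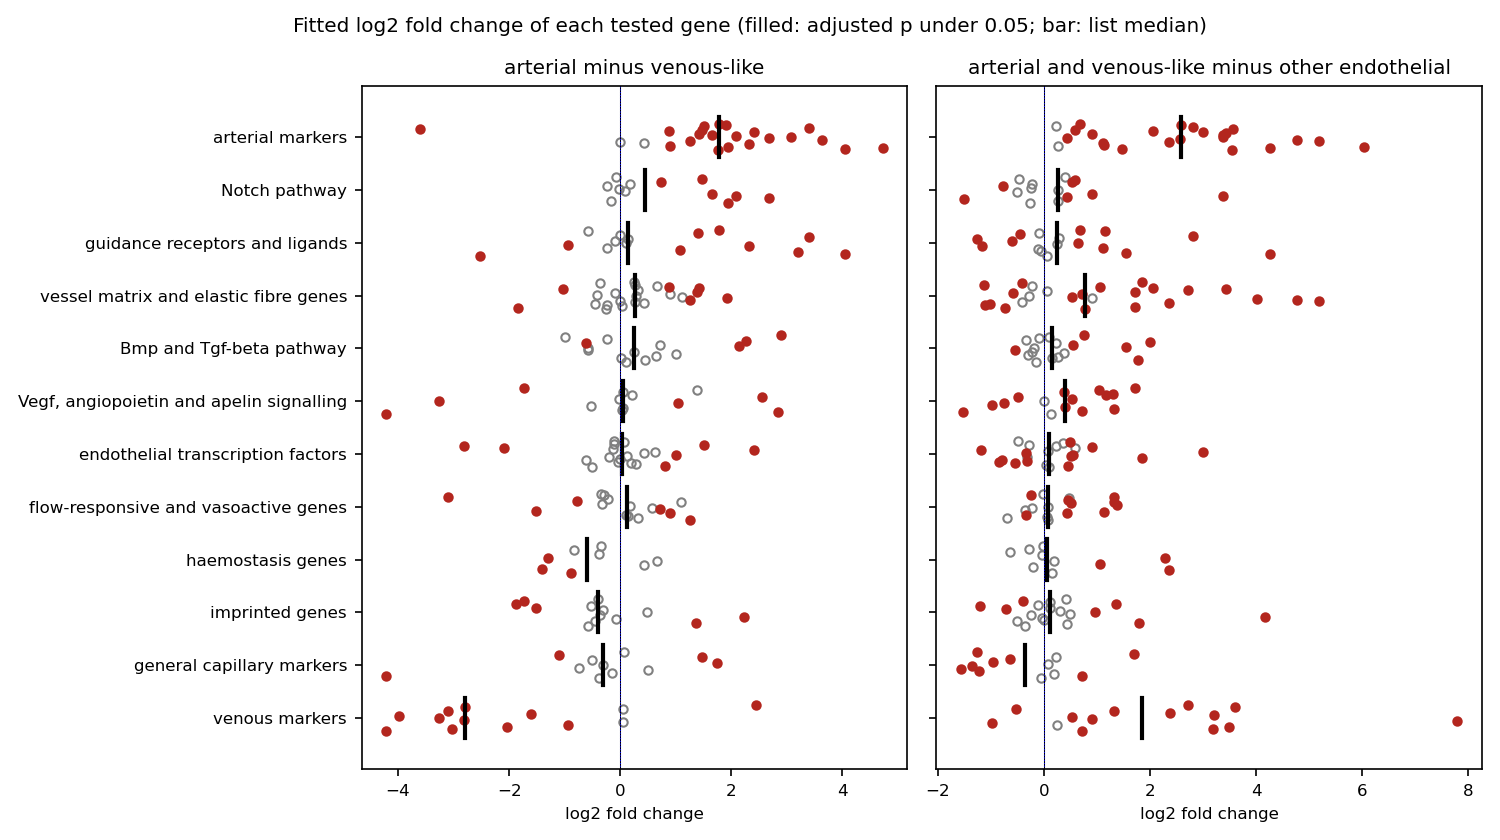
Fitted log2 difference of each tested gene by list, for arterial minus venous-like cells (left) and for arterial and venous-like minus other endothelial cells (right), filled where the edgeR adjusted p was under 0.05, with a bar at each list's median. Arterial and venous marker lists lie on opposite sides of 0 on the left (medians 1.78 and -2.79) and both above 0 on the right.

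The arterial cells varied among themselves along Vwf, a split chosen after the values were seen and given as description. Cells with 2 or more Vwf UMIs were deeper in wild type 1, wild type 2 and CKO 2. Their medians were 6799, 8683.5 and 14193 UMIs, against 4806, 4969 and 4467.5 UMIs. In CKO 1 they numbered 6 and were shallower, at 5655 against 7606 UMIs. The part of depth in the values below was not tested. The 87 arterial cells with 2 or more Vwf UMIs held the elastic fibre gene Fbln5 at 2144 ± 1099 CPM (SD, n = 4 libraries), against 192 ± 136 CPM in the 64 with 0 or 1. Cxcl12 stood at 3752 ± 1337 against 1354 ± 448 CPM, and Dkk2 at 369 ± 158 against 20.5 ± 25.2 CPM. Gpihbp1 went the other way, at 122 ± 112 against 565 ± 88.0 CPM. Hey1, by contrast, stood at 139 ± 40.6 and 149 ± 69.1 CPM, higher with Vwf in wild type 1 and CKO 1 and lower in wild type 2 and CKO 2. Efnb2 stood at 644 ± 139 and 431 ± 279 CPM. It was higher with Vwf in wild type 1, CKO 1 and CKO 2, but lower in wild type 2 (651 against 826 CPM). The endothelin gene Edn1 stood at 601 ± 129 CPM in the 31 cells with Bmx alone, 606 ± 200 CPM in the 47 with both genes and 270 ± 123 CPM in the 73 with Gja5 alone. Nr2f2 stood at 13.1 ± 26.1, 12.5 ± 12.5 and 61.2 ± 26.4 CPM in the same order. In the cells with Bmx alone it was at 0 in wild type 1, wild type 2 and CKO 1 and at 52.2 CPM in CKO 2. CKO 1 had only 3 such cells, with 11916 UMIs.

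The arterial and venous-like cells together were then set against the other endothelial cells, in the same libraries, which hold the capillary cells. They were higher in elastic fibre and large-vessel genes and lower in capillary and cell division genes. Of 8800 genes tested, 1944 passed (22.1%), 955 higher (10.9%) and 989 lower (11.2%) by edgeR's quasi-likelihood test. Of 24 arterial markers 22 were higher and none lower, and of 14 venous markers 11 were higher and 2 lower (Flt4 and Selenop). Without CKO 2, 1351 genes passed, and without wild type 2, 1275.

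Capillary genes were lower in the arterial and venous-like cells. Of 13 markers of aerocytes, the capillary cells of gas exchange, 10 were lower and none higher, and of 12 general capillary markers 6 were lower and 2 higher (Ptprb and Aplnr). Gpihbp1 stood at 358, 247, 515 and 209 CPM in wild type 1, wild type 2, CKO 1 and CKO 2, against 891, 600, 872 and 779 CPM in other endothelial cells (log2 difference -1.36 ± 0.12, edgeR adjusted p = 7.39e-07). The groups did not overlap (16.9% of all genes tested were lower within each of the 4 libraries, a looser measure). The aerocyte gene Car4, a carbonic anhydrase, stood at 64.4, 46.1, 3.58 and 75.8 CPM against 181, 163, 35.3 and 163 CPM, and CKO 1 was low in both kinds. Kit and Cd34, a growth factor receptor and a surface protein of capillaries, were lower (log2 differences -0.96 ± 0.13 and -1.01 ± 0.08).

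Elastic fibre genes were higher. Fbln5, which helps to assemble elastic fibres, stood at 858, 786, 683 and 2022 CPM against 22.4, 51.1, 35.3 and 39.5 CPM in other endothelial cells (log2 difference 4.78 ± 0.22, edgeR adjusted p = 8.46e-10). Fbln2 stood at 308, 294, 297 and 904 CPM against 10.9, 8.82, 20.7 and 10.3 CPM. Eln, the gene of elastin, stood at 1329, 1020, 1251 and 6959 CPM against 581, 412, 146 and 382 CPM, and CKO 2 stood above the other libraries, with 3664 of its 6056 UMIs in 3 cells. Of 25 matrix genes 14 were higher and 6 lower, and the 6 were Col4a1, Col4a2, Nid2, Col15a1, Lamb1 and Sparc. Genes of basement membrane lay on both sides, since Lamb2, Lama5, Hspg2 and Col18a1 were among the 14. Col4a1 stood at 1427 ± 255 CPM against 3003 ± 491 CPM (SD, n = 4).

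Other differences touched signals and regulators. Jag1 was the Notch gene most raised (3.38 ± 0.17), while Dll4 did not pass (0.26 ± 0.15) and Hes1 was lower (-1.50 ± 0.16). H19 stood at 811, 1033, 937 and 907 CPM against 33.0, 47.0, 58.5 and 68.2 CPM, with no overlap and little spread. Its log2 difference was 4.17 ± 0.13 (edgeR adjusted p = 1.19e-11). By the looser measure, 20.3% of all genes tested were higher within each of the 4 libraries. Vegfc, the angiopoietin receptor gene Tek, the endothelin gene Edn1 and the nitric oxide synthase gene Nos3 were higher by 1.72 ± 0.19, 1.31 ± 0.15, 1.14 ± 0.10 and 1.39 ± 0.17. Apln, the ligand of Aplnr, fell by 1.53 ± 0.17 on the log2 scale, and the lung endothelial transcription factor gene Foxf1 by 0.80 ± 0.10. Sox17 did not pass (0.23 ± 0.10). Its level was 343 ± 32.2 CPM in arterial, 117 ± 8.26 CPM in venous-like and 215 ± 41.7 CPM in other endothelial cells (SD, n = 4), so the 2 kinds lay on either side.

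Cell division genes were lower as a group. Of 18 tested S phase genes 16 were lower and none higher, and all 20 G2 and M phase genes were lower. Mki67 stood at 53.2, 53.7, 132 and 47.1 CPM against 162, 168, 276 and 171 CPM (log2 difference -1.60 ± 0.12, edgeR adjusted p = 1.55e-07). In single cells, the median summed level of both lists was 319 to 493 CPM in arterial, 246 to 427 CPM in venous-like and 346 to 829 CPM in other endothelial cells over the 4 libraries. Sums over 10000 CPM were found in 1 of 151 arterial, 1 of 108 venous-like and 109 of 1565 other endothelial cells, and the arterial one, at 16020 CPM, was in CKO 1. After thinning, a Mki67 UMI was found in 4 of 75, 3 of 84, 3 of 21 and 2 of 51 arterial and venous-like cells, against 53 of 353, 53 of 440, 36 of 125 and 50 of 269 other endothelial cells. Dnmt1, whose transcript is known to rise in S phase, was lower too, at 37.1, 40.3, 64.4 and 35.6 CPM against 74.5, 70.5, 78.3 and 74.8 CPM (log2 difference -0.87 ± 0.15, edgeR adjusted p = 0.000393). Hells, Uhrf1 and Mbd2, which also serve DNA methylation, were lower with it among 18 such genes tested, and the de novo methyltransferase gene Dnmt3a (0.71 ± 0.12) and Gadd45g were higher. Imprinted genes were split, with Cdkn1c and Plagl1 among 4 of 19 that were higher, by 1.79 ± 0.13 and 1.36 ± 0.10, and Mest among 3 that were lower, by 0.72 ± 0.07.

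Erythroid and most epithelial genes were lower as well. All 5 tested haemoglobin and erythroid genes and 5 of 6 epithelial genes were lower in arterial and venous-like than in other endothelial cells, while the keratin gene Krt18 was higher. Sftpc, the surfactant protein C gene of alveolar epithelium, stood at 229, 229, 261 and 416 CPM against 350, 428, 388 and 1456 CPM. Of 10 tested mesenchymal markers Mgp was higher and Myh11 lower. The germline gene Dazl was called higher, but it had no UMI in either wild-type library and rested mostly on a few cells of CKO 2 (values below). That call was lost under 4 of the alternatives listed at the end that tested it. Leaving out cells with germline UMIs removes every Dazl UMI, so the call could not be tested there. The arterial and venous-like cells were the deeper ones. The part of depth or free RNA in the lower genes was not tested.

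**Figure D4:**
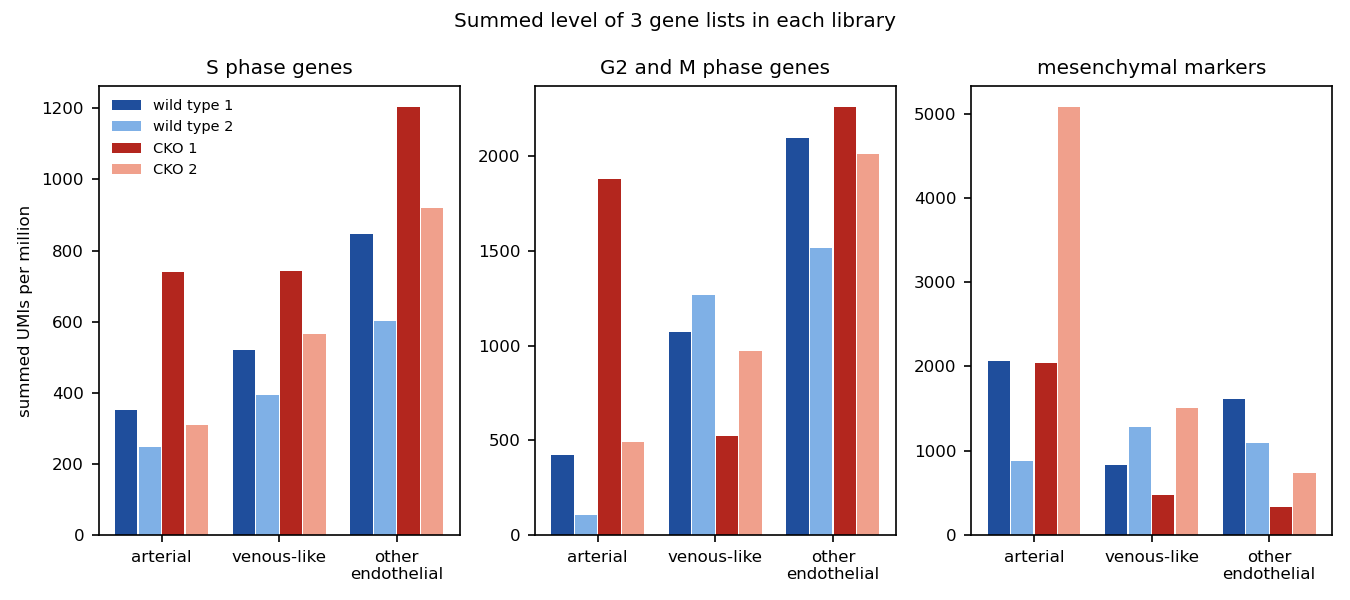
Summed level of 20 S phase genes, 20 G2 and M phase genes and 14 mesenchymal markers in CPM (y axis), in arterial, venous-like and other endothelial cells, with 1 bar per library. Other endothelial cells have the highest division-gene sums in every library, the G2 and M sum of CKO 1 arterial cells stands apart from the other arterial values, and the mesenchymal sum peaks in CKO 2 arterial cells.

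The study's own contrast, CKO against wild type, gave few differences in these cells. The arterial and venous-like cells made up 14.8% and 14.7% of endothelial cells in wild type 1 and wild type 2 and 13.1% and 13.3% in CKO 1 and CKO 2 (95% Clopper-Pearson intervals 11.97 to 17.98%, 11.96 to 17.76%, 8.65 to 18.7% and 10.3 to 16.7%, counting error only). The groups did not overlap, but the difference lay within those intervals, and p was 0.3333 by an exact permutation test (two-sided), which is the smallest p that 2 libraries a group allow. Arterial cells made up 59.5% and 50.6% of them in wild type and 80.0% and 59.0% in the CKO, which overlap within intervals (exact permutation p = 0.667). Dnmt1 itself did not pass in the arterial and venous-like cells. Its 4 levels, given above against the other endothelial cells, gave a log2 difference of 0.29 ± 0.37 (edgeR adjusted p = 0.999), which turned negative where cells with collagen, mesenchymal or germline UMIs or doublet calls were left out (-0.013 to -0.52), and without CKO 1 (-0.0607). Whether the counted 3′ end lies outside the deleted part is not given in the sources used here.

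Of 8266 genes tested over arterial and venous-like cells together, 5 were higher in the CKO and none lower by edgeR's quasi-likelihood test (0.0605% of all tested, 360 at an unadjusted p under 0.05, 4 by DESeq2). These were Igfbp5, an insulin-like growth factor binding protein gene, Saa3, an acute-phase protein gene, Thbs1, the gene of thrombospondin, Vcam1 and Hp, the gene of haptoglobin, which lay below the level set for named genes. Saa3 (chromosome 7, 46711998 to 46715700) had 0, 0, 11 and 114 UMIs in wild type 1, wild type 2, CKO 1 and CKO 2, which is at least 67.1-fold higher in the CKO against 3 UMIs over the wild-type group. All 11 UMIs of CKO 1 lay in 1 cell, and 105 of the 114 of CKO 2 in 3 cells. Other endothelial cells had 0, 2, 6 and 30 Saa3 UMIs, and the 30 of CKO 2 were spread over 27 of 398 cells.

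Igfbp5 (chromosome 1, 72857932 to 72874884) had 6, 4, 48 and 85 UMIs, or 7.43, 3.84, 172 and 97.7 CPM, a log2 difference of 4.56 ± 0.45 (edgeR adjusted p = 0.000174). All 48 UMIs of CKO 1 lay in a single venous-like cell. Wild-type cells with many Igfbp5 UMIs were found among the other endothelial cells. There, 67 of 81 UMIs of wild type 1 and 29 of 33 UMIs of wild type 2 lay in 1 cell each. Thbs1 stood at 22.3, 29.7, 96.5 and 156 CPM (log2 difference 2.37 ± 0.34, edgeR adjusted p = 0.00768), with 22 of 27 UMIs of CKO 1 in 3 cells. Vcam1 stood at 19.8, 21.1, 67.9 and 197 CPM (log2 difference 2.84 ± 0.42, edgeR adjusted p = 0.00845), with 100 of 171 UMIs of CKO 2 in 3 cells. Hp had 3, 6, 11 and 36 UMIs (log2 difference 3.07 ± 0.50, edgeR adjusted p = 0.0231). No wild-type value of these genes reached a CKO value, as held for 12.9% of all genes tested (31.6% did not overlap in one direction or the other).

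**Figure D5:**
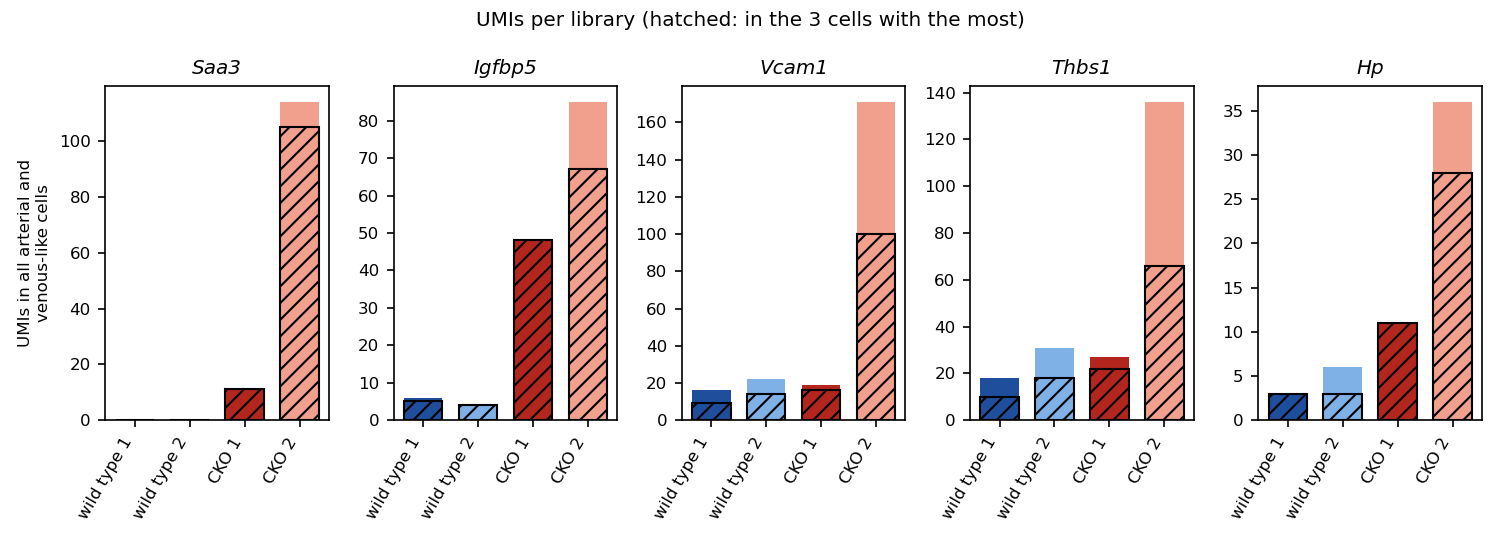
UMIs of the 5 genes higher in the CKO, summed over arterial and venous-like cells (y axis, counts), with 1 bar per library and the UMIs of the 3 cells with the most hatched. The 2 wild-type libraries lie at 0 to 31 UMIs, and the hatched part makes up all 11 Saa3 UMIs and all 48 Igfbp5 UMIs of CKO 1.

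The number of calls changed when cells or libraries were left out. With cells that carried UMIs of 3 or more of 12 mesenchymal markers left out, 0 genes passed, and with doublet calls or cells at 0.1% collagen or more left out, 1 passed. Without wild type 1 or without wild type 2, 0 passed, while without CKO 1 there were 73 and without CKO 2 there were 26. Each such leave-out leaves 1 library in a group, which is assumed to vary like the other libraries. The 14 mesenchymal markers summed to 1662, 1046, 1527 and 3703 CPM in the arterial and venous-like cells of the 4 libraries, none was at 0 in all, and 8 of 9 tested lay above 0 in the CKO with none called. Of the cells, 7 of 84, 4 of 89, 2 of 25 and 10 of 61 had UMIs of 3 or more of the 12.

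In arterial cells alone, 0 of 6979 genes passed edgeR's quasi-likelihood test (0% of all tested, 273 at an unadjusted p under 0.05, 2 by DESeq2). The 5 smallest p-values included those of Hp, Saa3, Thbs1 and Vcam1, with edgeR adjusted p from 0.129 to 0.375. Without CKO 1, 104 genes passed, and without CKO 2, 8 passed. Venous-like cells were not tested alone, since CKO 1 had 5.

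Vessel identity genes showed no called change in this contrast of the groups, Vcam1 aside, while Eln, Mgp and Cxcl12 passed in the interaction given below. Of 25 arterial markers none passed, with 12 above 0 and a median log2 difference of -0.08, and of 15 venous markers Vcam1 alone passed, with a median of -0.15. None of 15 Notch genes passed, and 2 of them lay above 0, with a median of -0.28 where that of all genes was 0.00. In arterial cells alone none of 13 passed and none lay above 0, with a median of -0.36 (all genes -0.01). Of 25 matrix genes none passed, 23 lay above 0 and the median was 0.48, but their sum stood at 9767, 9285, 9918 and 21209 CPM, with CKO 2, the library with the most mesenchymal marker UMIs, apart from the rest. In arterial cells Dll4 lay at -0.50 ± 0.35 and Hey1 at -0.48 ± 0.32, so shifts of such a size could not be told from 0. Of 23 endothelial transcription factor genes and 18 Bmp and Tgf-beta genes none passed, with medians of -0.13 and -0.04. None of 16 G2 and M phase genes passed, and all 16 lay above 0 (median 0.54), where CKO 1 held the arterial cell with the highest division-gene sum. None of 15 interferon and viral RNA sensing genes passed, with a median of -0.62, and their list summed to 1042, 1202, 311 and 1056 CPM, with CKO 1 alone low.

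Germline genes that DNA methylation normally silences, such as Dazl, were present in the CKO cells at a low level. The 30 listed genes summed to 2, 10, 16 and 118 UMIs in arterial and venous-like cells, or 2.48, 9.59, 57.2 and 136 CPM, so both CKO values were above both wild-type values. Other endothelial cells held 14.3, 17.0, 31.9 and 79.8 CPM. Collagen-rich mesenchymal barcodes held 69.1, 65.2, 1580 and 1440 CPM. Dazl had 0, 0, 3 and 48 UMIs in the arterial and venous-like cells and 0, 0, 11 and 54 UMIs in other endothelial cells. The listed UMIs were found in 2 of 84, 9 of 89, 6 of 25 and 16 of 61 cells, and in CKO 2 the 16 cells had a median of 26710 UMIs against 4960 in the rest. A single cell held 10 of the 16 UMIs of CKO 1 and another 46 of the 118 of CKO 2, and 39 of the 48 Dazl UMIs of CKO 2 lay in 3 cells. Of the 16 cells of CKO 2, 8 had UMIs of 3 or more mesenchymal markers, against 10 of all 61. No gene of the list had enough UMIs to be tested between the groups, and the part played by free RNA or by mesenchymal RNA in the same droplets was not tested.

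Whether the CKO changed arterial and venous-like cells otherwise than the other endothelial cells was tested as an interaction. Of 9694 genes, 40 passed (0.413%), 36 with a greater CKO minus wild-type difference in arterial and venous-like cells (0.371%) and 4 with a smaller one (0.0413%). Those named by the rule included genes of matrix or contractile cells, such as Fn1, the gene of fibronectin, at 265, 192, 157 and 464 CPM in arterial and venous-like cells and 328, 182, 23.2 and 74.8 CPM in other endothelial cells. The interaction of Fn1 thus came with a fall in the other endothelial cells as well as the high value of CKO 2. Of 10 tested mesenchymal markers 5 passed, Fn1, Mfap4, Acta2, Tagln and Mgp. Summed mesenchymal markers stood at 1614, 1093, 334 and 736 CPM in other endothelial cells, against the values given above for arterial and venous-like cells. With cells of 3 or more mesenchymal markers left out 3 genes passed, and with a collagen limit of 0.1% 1 gene passed. Between arterial and venous-like cells the CKO difference itself differed for 4 of 6759 genes (0.0592%), 3 greater in arterial cells (0.0444%), Malat1 among them, and Higd1b smaller (0.0148%). DESeq2 called 0, with 74 at an unadjusted p under 0.05 there and 489 by edgeR. Without CKO 1, with its 5 venous-like cells, edgeR called 113.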

How the data were processed

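The 4 libraries were 10x 3′ single-cell libraries of enzyme-dissociated, filtered and red-cell-lysed lung. The deposited files hold UMI counts per gene and barcode, which the authors made from the reads. The submitters' processing notes name the build GRCm38.p6 and the tools Cell Ranger (3.1.0), bcl2fastq (2.20) and Seurat. No normalised values were used. Of 55471 gene IDs, 54573 matched GENCODE vM21 with version, which gave the positions.

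Counts were summed per library and kind of cell (Python, scanpy 1.11.5) and tested with edgeR 4.0.16 (R 4.3.3): filterByExpr, TMM factors, glmQLFit and glmQLFTest, Benjamini-Hochberg adjustment over all genes, threshold 0.05. Genes of the rule and mitochondrial genes were fitted, but were left out of the adjustment and were not called or counted. Arterial against venous-like cells, arterial and venous-like against other endothelial cells, and the interactions had library as a block, since the kinds share a library. CKO against wild type had no block. The intended test of CKO against wild type in venous-like cells was not run, because CKO 1 had 5 cells where at least 10 were asked for. The scripts were tested on simulated data.

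Scrublet (through scanpy, expected rate 6%) marked 560 barcodes as doublets, 4 of them among the 259 cells, and they were kept except in an alternative. Thinning drew 3000 UMIs a cell, or 2000 in an alternative. Intervals cover counting error only.

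The members, the gene lists and the tests were chosen with earlier results of these data known. Genes were named by rule: those called, with a mean level of 5 or more in log2 CPM and the same direction in all libraries (no overlap between groups for the CKO), up to 12 largest rises and falls between kinds and 10 for the CKO, the 5 smallest p-values where fewer than 3 genes were called, up to 4 members of each list, and any arterial or venous marker. Some genes that met the rule are not reported here. Other list members named, Hp among them, were chosen after their values were seen. Alternatives were other scaling (RLE, library size only), no low-count filter, DESeq2 1.42.0, stricter cell limits, left-out doublets or libraries, a collagen limit of 0.1%, Vwf of at least 3, equal cell numbers, sex and replicate terms. Leaving out cells with germline UMIs or with 3 or more mesenchymal markers was added after seeing the data.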

Additional observations from a re-analysis of the deposited data

Results flagged for a closer look

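Cases where the CKO minus wild-type difference differed between kinds of cell, by an edgeR interaction test with adjusted p under 0.05, stand here with their log2 interaction. A positive value means a greater difference in arterial and venous-like than in other endothelial cells. The 16 of the 40 that the rule for named genes took include the contractile, matrix and mesenchymal genes Acta2 (2.94), Tagln (2.89), Fn1 (2.82), Lox (2.63), Mfap4 (2.60), Eln (2.52), Col6a3 (2.25), Bgn (1.30) and Mgp (1.13). Adh1 (2.34), Thbs1 (2.11), Gsn (2.07), Vcam1 (2.91) and the imprinted RNA Meg3 (1.63) were positive too. Meg3 stood at 61.9, 67.2, 96.5 and 432 CPM in the arterial and venous-like cells and at 88.4, 93.5, 46.5 and 201 CPM in other endothelial cells of wild type 1, wild type 2, CKO 1 and CKO 2, so CKO 2 was high in both. Fabp5 (-1.40) and Cxcl12 (-1.12) were negative. Cxcl12 stood at 71.1, 77.3, 195 and 58.8 CPM in other endothelial cells, with CKO 1 highest, while its arterial and venous-like values were 2323, 1930, 1663 and 1166 CPM.

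Few cells carried several of these values. Of the Acta2 UMIs of CKO 1, 47 of 52 lay in 1 cell, and of the Eln UMIs of CKO 2, 3664 of 6056 lay in 3 cells. The same held for other endothelial cells of wild type 2. There, 281 of 418 Acta2 UMIs, 343 of 448 Tagln UMIs and 609 of 1401 Eln UMIs lay in 1 cell for each gene.

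Between arterial and venous-like cells, the nuclear RNA Malat1 (1.08) had the greater CKO difference in arterial cells. The pericyte gene Higd1b had the opposite sign (-11.97), a fitted value that depends on the prior count, with 20, 20, 0 and 1 UMIs in arterial and 0, 0, 0 and 30 UMIs in venous-like cells. Of these, 13 and 18 of the wild-type UMIs lay in 1 cell each and the 30 of CKO 2 in 2 cells.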

How the results depend on the processing

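Of 76 genes followed between arterial and venous-like cells, 59 kept their direction and side of the threshold under every alternative that tested them. So did 69 of 72 against other endothelial cells, and none reversed in either comparison. Of the 6 followed over the CKO contrast, and of the 16 and 2 of the interactions, none kept both throughout. Some alternatives left genes untested. With equal cell numbers, 41 of the 76 kept both, 5 lost their call and the rest were not tested.

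Counts of genes called moved by over 1.5 times as follows. The 402 between arterial and venous-like cells became 683 with no low-count filter, 259 by DESeq2, 168 with equal cell numbers and 207 to 421 with a library left out (207 without wild type 1). The 1944 against other endothelial cells became 1159 by DESeq2, 1088 with equal cell numbers, 996 with no library block and 1275 to 2246 with a library left out. The 5 of the CKO became 57 with no filter, 1 without doublets, 1 with collagen under 0.1%, 0 with equal cell numbers, 0 without cells of 3 or more mesenchymal markers, and 0 to 73 with a library left out. The 0 of CKO arterial cells became 82 with no filter, 2 by DESeq2, 1 with sex as covariate and 0 to 104 with a library left out (104 without CKO 1). The 40 of the interaction with other endothelial cells became 9 by DESeq2, 9 without doublets, 1 with collagen under 0.1%, 23 with Vwf of at least 3, 4 with equal cell numbers, 3 without cells of mesenchymal markers, 1 with no block and 33 to 102 with a library left out. The 4 of the interaction of arterial with venous-like cells became 47 with no filter, 0 by DESeq2, 1 under the strict cell filter, 8 with collagen under 0.1%, 1 with Vwf of at least 3, 2 with equal cell numbers, 0 without germline cells, 16 without cells of mesenchymal markers, 0 with no block and 16 to 113 with a library left out.

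Replicate numbers as a block gave 64 calls over all cells and 27 in arterial cells. Same-numbered libraries correlated at 0.157 and 0.152 in their deviations over genes, but with 2 pairs the libraries share only a number.

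The CKO minus wild-type difference in the share of arterial and venous-like cells among endothelial cells was -1.55 percentage points. It became -3.14 (strict filter), -2.13 (doublets), -2.55 (collagen), -0.539 (Vwf), -3.35 (germline cells), -2.39 (mesenchymal markers), -2.42 (thinned to 3000) and -2.12 (thinned to 2000). The difference in the share of arterial cells among both kinds, 14.5, became -2.34 when thinned to 2000. With a library left out it was 3.97 (without CKO 1) to 24.96 (without CKO 2). Dnmt1 over all cells reversed to -0.065 (doublets), -0.013 (collagen), -0.52 (germline cells) and -0.40 (mesenchymal markers), with -0.0607 (without CKO 1) to 0.74 (without CKO 2) as the range with a library left out, and in arterial cells to -0.24 (doublets), -0.32 (collagen) and -0.26 (mesenchymal markers). The interaction of Mgp reversed to -0.20 with equal cell numbers, and that of Malat1 to -0.10 without germline cells. The causes were not tested. With 20 arterial and 5 venous-like cells, CKO 1 limits every CKO value.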
